A study of Mus musculus with 6 samples.

Results

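The 38 genes described here encode the enzymes and transporters of mitochondrial and peroxisomal fatty acid oxidation, from activation of the fatty acid to the carnitine shuttle, the beta-oxidation spiral and its electron carriers. They were chosen by symbol, and all 38 were found once each among the 31529 genes of the deposited table. Fetal hearts of the outbred mouse stock ICR, wild type, were sequenced for poly(A) RNA at E16.5 (embryonic day 16.5) with 3 libraries and at E18.5 with 3 more. No treatment or transgene is recorded for either stage. The labels do not say how many hearts or litters stand behind a library, so p-values measure the spread between these libraries only. Whole hearts hold many cell types, and fewer cells of a type cannot be told apart from less RNA per cell in such samples.

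In beta-oxidation, a fatty acid is first bound to coenzyme A by an acyl-CoA synthetase (Acsl genes). Carnitine palmitoyltransferase 1 on the outer mitochondrial membrane then passes the acyl group to carnitine, a step that malonyl-CoA inhibits, and carnitine palmitoyltransferase 2 on the inside returns it to coenzyme A. Inside, dehydrogenation, hydration, a further dehydrogenation and thiolysis shorten the chain in repeated rounds, and the electrons of the opening step leave through the electron transfer flavoprotein. Peroxisomes shorten very long and branched chains by a parallel route. The fetal heart draws mostly on glucose and lactate, and fatty acids become its main fuel after birth.

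Estimated counts summed to between 61443414 and 77237333 per library. The share of genes encoded in the mitochondrial genome was 41.4%, 19.9% and 35.0% in the E16.5 libraries and 33.5%, 26.7% and 25.2% in the E18.5 libraries, in the order of replicates 1, 2 and 3 that is kept throughout. E16.5 replicate 2, the library with the lowest share, stood apart from the other E16.5 libraries in many of the oxidation genes, so results are given with and without it. The tissue label fits its defining markers: the 10 cardiomyocyte markers summed to between 33072 and 46368 CPM (counts scaled to library depth, with TMM) in every library. Summed markers of other tissues rich in fatty acid oxidation were low beside those of cardiomyocytes. The brown adipocyte markers summed to between 20.4 and 29.6 CPM, and 9 hepatocyte markers to between 42.6 and 122 CPM. Ucp1, the uncoupling protein of brown fat, was at 0 CPM in every E16.5 library and at or below 0.193 CPM at E18.5. Other brown adipocyte markers were higher, with Prdm16 between 15.86 and 24.04 CPM and Cidea at up to 4.08 CPM.

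The heart libraries held a wide range of oxidation transcripts, led by the long-chain acyl-CoA dehydrogenase Acadl at a mean of 243 FPKM (fragments per kilobase of transcript, scaled to library depth, a level that can be compared between genes). Next came the flavoprotein subunit Etfb at 188 FPKM, the mitochondrial thiolase Acaa2 at 70.9 FPKM, the muscle form of carnitine palmitoyltransferase 1, Cpt1b, at 69.7 FPKM and the medium-chain dehydrogenase Acadm at 43.1 FPKM. Among all 19959 genes tested, Acadl ranked 107 and Etfb 142 by this mean. At the other end, the brain-enriched synthetase Acsl6 was at 0.157 FPKM and the peroxisomal transporter Abcd2 at 0.133 FPKM. The members of a single pathway thus covered levels from 0.133 to 243 FPKM, with Acadl and Etfb the highest pair at both stages. FPKM is not TMM-scaled, so single libraries were compared in CPM and FPKM was used between genes.

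**Figure D1:**
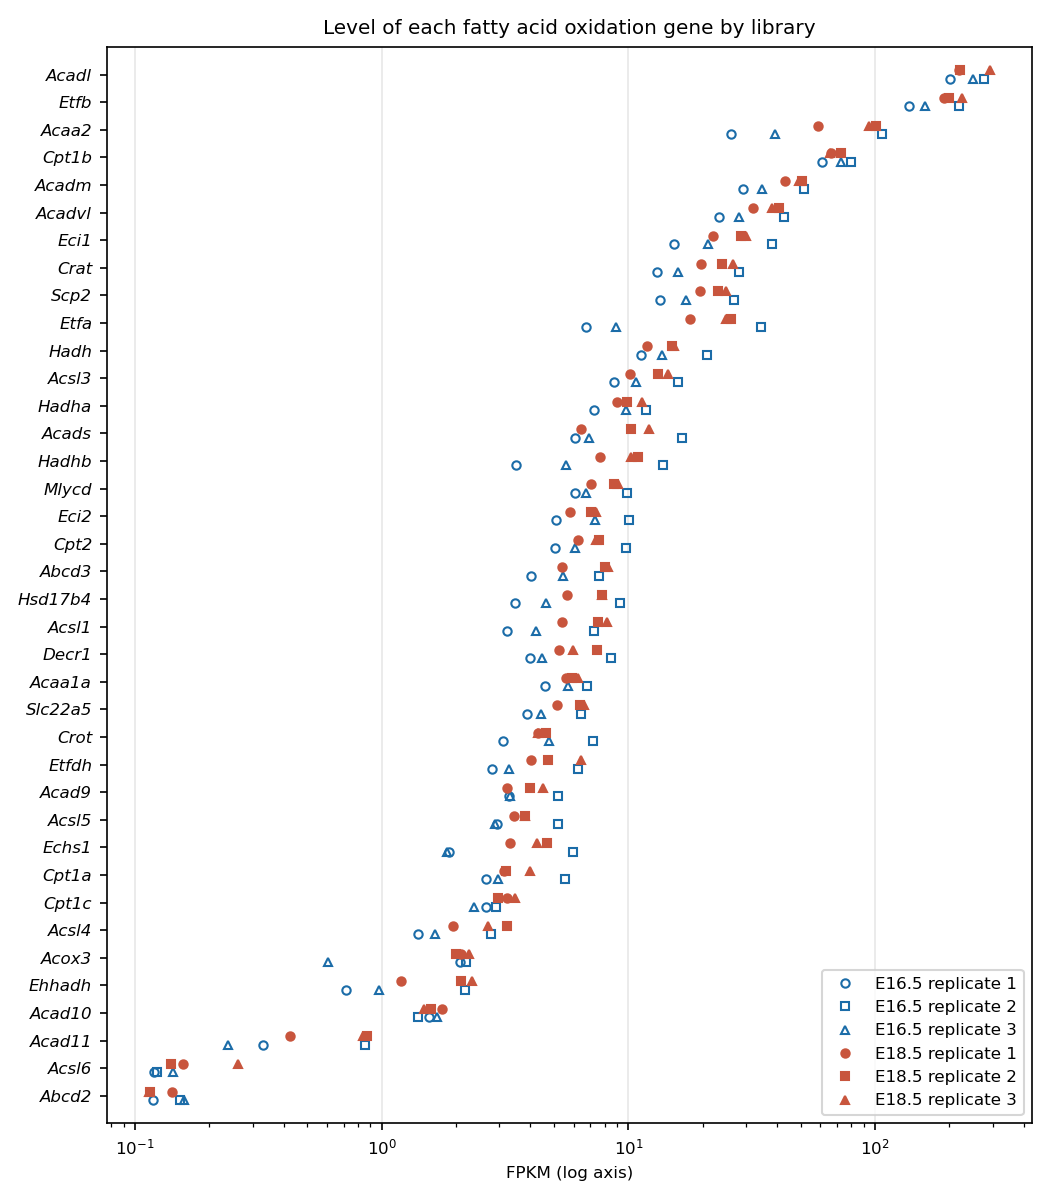
FPKM (log axis) of the 38 fatty acid oxidation genes in each library, with open blue symbols for E16.5, filled red symbols for E18.5 and symbol shape for the replicate. Acadl and Etfb stand highest in all 6 libraries, while Acaa2, Etfa, Hadhb and Echs1 show E16.5 replicates 1 and 3 well to the left of E16.5 replicate 2. FPKM is not TMM-scaled, and other genes shift the same way on this axis. Acsl3 was at 8.70, 15.8 and 10.7 FPKM at E16.5, but at 51.5, 61.5 and 55.7 CPM.

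None of the 38 genes passed the test between the stages, in which a change is an adjusted p under 0.05 (edgeR quasi-likelihood, Benjamini-Hochberg). The background was low as well, with 0.15% of 19959 genes called (0.0952% toward higher and 0.0551% toward lower levels in the older hearts), so 0 of 38 is close to it. All 38 members passed the filter on low counts. At an unadjusted p under 0.05 there was 1 member, Acsl1, against 9.53% of all genes tested, and 0 members were called by DESeq2 or by limma on log2(FPKM + 1). The log2 change was above 0 for 24 members and below 0 for 14, against 49.8% above 0 over all genes. The median log2 change of the members was 0.17, with a range of -0.30 to 0.57, beside a median of -0.0019 over all genes. It was 0.071 without E16.5 replicate 1 or without E16.5 replicate 3. On simulated counts with these means and library sizes, 40% of genes with a 2-fold change and 90% of those with a 4-fold change were recovered. No member reached a 2-fold change.

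In 3 members, Slc22a5, Acadm and Etfb, all E18.5 libraries lay above all E16.5 libraries, against 8.45% of all genes. In 1 member, Hadh, all E18.5 libraries lay below, against 8.02% of all genes. For the other 34 members the stages overlapped.

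**Figure D2:**
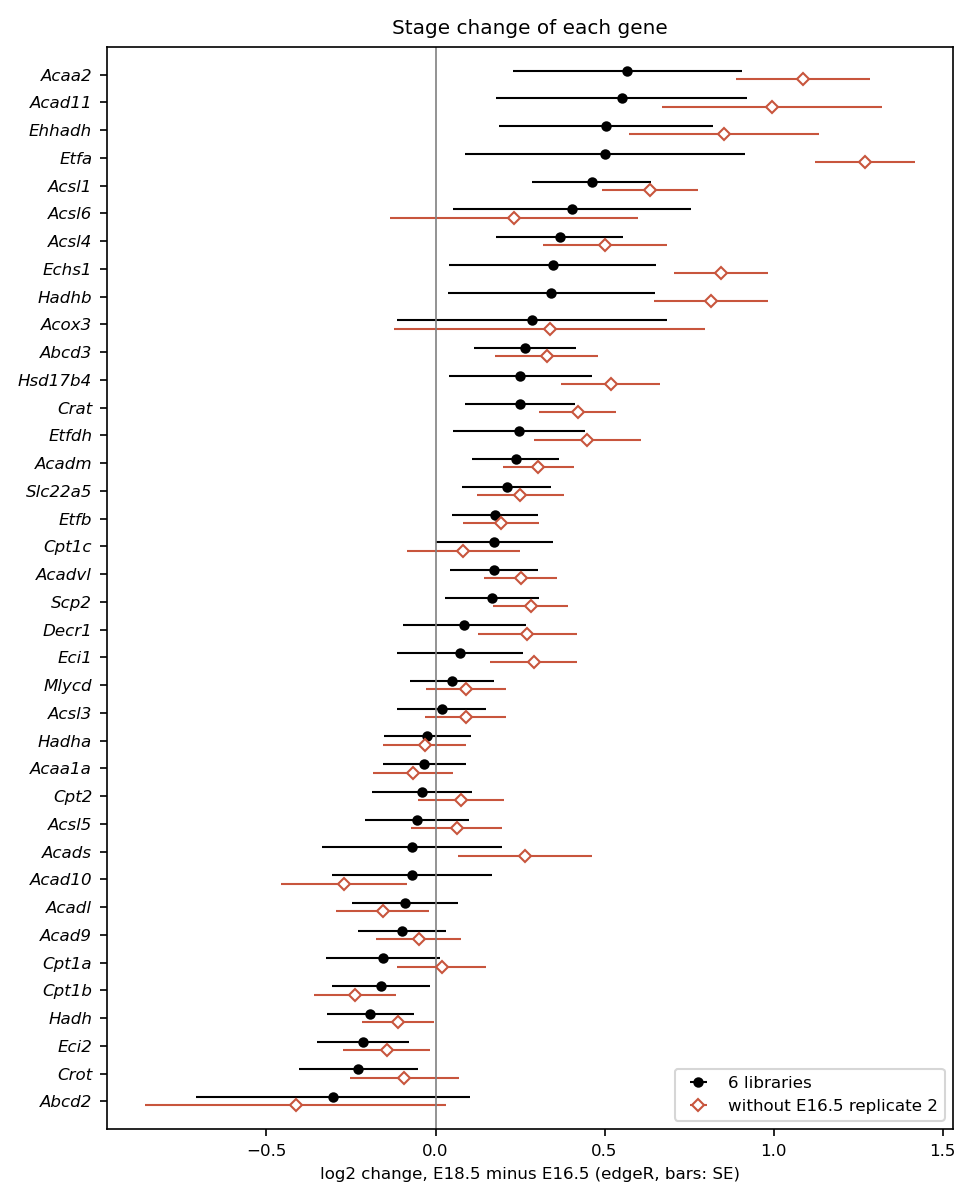
Log2 change from E16.5 to E18.5 of the 38 genes with its SE (edgeR), in all 6 libraries (black circles) and without E16.5 replicate 2 (open red diamonds). Acaa2 has the highest change in all libraries at 0.57, and Etfa moves from 0.50 to 1.27 when that library is left out.

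Of the 5 acyl-CoA synthetases, which trap fatty acids as coenzyme A esters, Acsl3 held the highest level per length and Acsl1, the main form of the adult heart, gave the smallest p between stages. Acsl1 (ENSMUSG00000018796, GRCm38 chromosome 8, 46471037 to 46536051) was at 45.8, 67.9 and 52.9 CPM in the E16.5 hearts, then 66.0, 79.3 and 84.2 CPM in the E18.5 hearts. The stages overlapped only through E16.5 replicate 2, which lay above E18.5 replicate 1. The log2 change was 0.46 ± 0.18 (SE), with an unadjusted p of 0.0292 and an edgeR adjusted p of 0.457. Acsl4, which prefers arachidonic acid, was at 10.3, 13.4 and 10.6 CPM at E16.5, then 12.3, 17.5 and 14.4 CPM at E18.5 (log2 change 0.37 ± 0.19). Acsl3, which serves lipid droplet formation, ran from 51.5 to 61.8 CPM with a log2 change of 0.019, and Acsl5 ran from 16.7 to 22.5 CPM with one of -0.055. Acsl5 overlaps Zdhhc6 on the other strand at 142% of its level, and the sources do not say whether counting was stranded. Acsl6 stayed between 1.10 and 2.57 CPM.

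The share of Acsl1 within the synthetase family was higher in each E18.5 library than in any E16.5 library, in a design too small to pass a threshold of 0.05. By FPKM, Acsl1 made up 19.7%, 23.3% and 21.6% of the 5 Acsl genes at E16.5, then 25.6%, 27.1% and 27.8% at E18.5. The means were 21.5% ± 1.82 (SD, n = 3) and 26.8% ± 1.13 (SD, n = 3). The difference was 5.31 percentage points (exact two-sided permutation test, p = 0.1, the smallest that 3 against 3 libraries can give). The Acsl3 share went the other way, at 53.2%, 50.7% and 54.7% and then 48.1%, 47.2% and 49.1%. Both shares are parts of the same sum, so they are not independent, and the Acsl3 level itself had a log2 change of 0.019. E16.5 replicate 2, which overlapped E18.5 in the Acsl1 level, did not overlap it in the Acsl1 share.

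In the carnitine shuttle, the muscle enzyme Cpt1b far exceeded the liver form Cpt1a at both stages, and no shuttle gene passed the test. Cpt1b (ENSMUSG00000078937, chromosome 15, 89416405 to 89425863) was at 279, 240.3 and 292 CPM at E16.5, then 261, 245 and 218 CPM at E18.5 (log2 change -0.16 ± 0.14). Cpt1a (ENSMUSG00000024900, chromosome 19, 3322334 to 3385733) was at 27.4, 37.6 and 27.0 CPM and then 28.0, 24.5 and 30.1 CPM, with a log2 change of -0.16 ± 0.17. The edgeR adjusted p was 0.740 for Cpt1b and 0.784 for Cpt1a. Per length, the FPKM of Cpt1b was 23.1, 14.5 and 24.5 times that of Cpt1a at E16.5, and 21.2, 22.7 and 16.4 times at E18.5. The ratio had means of 20.7 ± 5.41 and 20.1 ± 3.31 (SD, n = 3 each) and overlapped between stages (exact two-sided permutation test on log2 ratios, p = 0.9). E16.5 replicate 2 had the lowest ratio, and its Cpt1a was the highest of the 6 libraries and its Cpt1b the lowest at E16.5.

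Reads of Cpt1b are uncertain, since Gm44502 (ENSMUSG00000116461) spans the whole of Cpt1b on the same strand and shares 1841 bases of identical transcript with it. Gm44502 was at 169, 62.0 and 77.7 CPM at E16.5, then 78.7, 54.2 and 139.6 CPM at E18.5. Its level per length was 29.0, 16.2 and 15.2 FPKM and then 15.7, 12.6 and 33.0 FPKM, so it varied more between replicates than Cpt1b did. Summed, the genes gave a log2 change of -0.17 ± 0.18 and an edgeR adjusted p of 0.780, close to Cpt1b alone. With the sum in place of Cpt1b, the ratio to Cpt1a was 27.0 ± 8.60 at E16.5, then 25.9 ± 1.07 at E18.5.

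The promoter window of Cpt1a, which RefSeq gives on GRCm38.p6 as chr19:3323051-3323350 on the plus strand (250 bases before to 50 bases after the gene start), is shown because this is the regulated liver form. The capitals mark the letters AGGTCA or their reverse complement, the core that each partner of a nuclear receptor pair such as PPAR and RXR binds.
Cpt1a: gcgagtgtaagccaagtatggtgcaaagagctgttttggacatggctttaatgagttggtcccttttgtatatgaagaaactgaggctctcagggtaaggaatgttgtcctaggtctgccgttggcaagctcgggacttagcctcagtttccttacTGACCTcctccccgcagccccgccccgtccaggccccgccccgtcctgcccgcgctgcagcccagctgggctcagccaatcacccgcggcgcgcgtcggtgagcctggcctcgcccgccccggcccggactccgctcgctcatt

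Other shuttle genes carry carnitine or its esters, or set malonyl-CoA. Slc22a5, the plasma membrane carnitine transporter, was at 16.2, 17.6 and 16.2 CPM at E16.5, then 18.4, 19.5 and 19.9 CPM at E18.5 (log2 change 0.21 ± 0.13, edgeR adjusted p = 0.638), without overlap of the stages. A near-identical gene, Slc22a21, held 38.9% of the Slc22a5 level, and their sum gave a log2 change of 0.26. Crat, which makes acetylcarnitine, was at 95.3, 135 and 102 CPM and then 124, 129 and 141 CPM (log2 change 0.25 ± 0.16). Leaving E16.5 replicate 2 aside, every E16.5 library lay below every E18.5 library in Crat. Cpt2, the inner enzyme, ran from 16.3 to 20.9 CPM with a log2 change of -0.039. Mlycd, which degrades malonyl-CoA, was the steadiest member, between 23.7 and 26.6 CPM with a log2 change of 0.049. The peroxisomal octanoyltransferase Crot was at 22.9, 35.0 and 31.1 CPM and then 27.5, 25.3 and 23.1 CPM (log2 change -0.23 ± 0.18). Cpt1c, the neuronal form, ran from 14.6 to 21.2 CPM with a log2 change of 0.17.

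Among the acyl-CoA dehydrogenases, which open each round, Acadl held most of the summed level, and none passed the test. Acadl was at 547, 493 and 594 CPM at E16.5, then 513, 446 and 576 CPM at E18.5 (log2 change -0.091 ± 0.16). By FPKM it made up 76.0%, 70.0% and 76.9% of the 7 dehydrogenase genes at E16.5, then 71.5%, 67.3% and 73.3% at E18.5, so the stages overlapped. Acadm (ENSMUSG00000062908, chromosome 3, 153922357 to 153944632), the medium-chain enzyme, was at 154, 180.4 and 162 CPM at E16.5, then 198, 197 and 190.0 CPM at E18.5. Its E18.5 libraries agreed closely and lay above all E16.5 libraries, with a log2 change of 0.24 ± 0.13 and an edgeR adjusted p of 0.590. Acadvl, the very long-chain enzyme of the inner membrane, was at 85.3, 102 and 89.7 CPM and then 101, 110.2 and 101 CPM (log2 change 0.17 ± 0.13). For Acadvl the stages overlapped through E16.5 replicate 2. Acadvl overlaps Dvl2 on the other strand, at 31.5% of its level.

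The promoter window of Acadm, chr3:153944594-153944893 on the minus strand of GRCm38.p6, is printed because the gene was among the 5 highest members by FPKM and its window holds the same letters, again in capitals.
Acadm: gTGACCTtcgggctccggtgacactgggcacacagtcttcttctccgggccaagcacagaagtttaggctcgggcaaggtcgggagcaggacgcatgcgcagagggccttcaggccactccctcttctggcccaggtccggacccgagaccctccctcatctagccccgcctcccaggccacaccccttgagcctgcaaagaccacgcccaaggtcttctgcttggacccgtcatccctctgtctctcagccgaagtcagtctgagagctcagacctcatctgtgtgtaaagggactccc
Its match starts 249 bases before the gene start, at the edge of the window.

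The short-chain dehydrogenase Acads was at 18.7, 33.4 and 18.8 CPM at E16.5, then 17.0, 23.3 and 27.2 CPM at E18.5. E16.5 replicate 2 was the highest library, and the log2 change was -0.070 in all libraries and 0.26 without that one. Acad9, which also serves the assembly of respiratory complex I, ran from 30.9 to 37.9 CPM with a log2 change of -0.098. Acad10 ran from 7.64 to 12.8 CPM with one of -0.071, and a similar gene, Acad12, held 33.8% of its level. Acad11 was at 4.43, 7.48 and 2.80 CPM and then 4.91, 8.59 and 8.08 CPM (log2 change 0.55 ± 0.37). Acad11 overlaps Ackr4 on the other strand, at 49.9% of its level.

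The later enzymes of the spiral divided into steady genes and genes that differed 2.41- to 2.83-fold between the lowest and the highest library. Acaa2 (ENSMUSG00000036880, chromosome 18, 74779197 to 74806208) is a mitochondrial thiolase. It was at 53.8, 143 and 71.2 CPM at E16.5, then 104, 152 and 141 CPM at E18.5. Echs1 (ENSMUSG00000025465, chromosome 7, 140105710 to 140116476), the short-chain enoyl-CoA hydratase, was at 21.2, 44.0 and 18.2 CPM and then 32.2, 38.9 and 34.9 CPM. Hadhb, the thiolase subunit of the trifunctional protein, was at 31.4, 81.2 and 43.8 CPM and then 59.4, 72.6 and 66.5 CPM. In each of these genes E16.5 replicates 1 and 3 lay below every E18.5 library, and E16.5 replicate 2 lay above at least 1 of them. The log2 change was 0.57 ± 0.34 for Acaa2, 0.35 ± 0.31 for Echs1 and 0.34 ± 0.31 for Hadhb, with edgeR adjusted p of 0.622, 0.736 and 0.741.

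Hadha, the other subunit of the trifunctional protein, was steady where Hadhb was not. Hadha (chromosome 5, 30118304 to 30155162, minus strand) was at 86.2, 92.1 and 102 CPM at E16.5, then 91.5, 86.2 and 97.8 CPM at E18.5 (log2 change -0.024 ± 0.13). Per length, the FPKM of Hadhb divided by that of Hadha was 0.483, 1.17 and 0.570 at E16.5, then 0.859, 1.11 and 0.900 at E18.5. Hadhb (chromosome 5, 30155248 to 30184593, plus strand) lies head to head with Hadha, and the RefSeq starts are 273 bases apart. A near-identical copy of Hadhb, Hadhb-ps, was counted apart, and their sum gave a log2 change of 0.32.

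The window of Hadhb, chr5:30155003-30155302 on the plus strand of GRCm38.p6, is printed because it shares most of its length with that of Hadha. Here the capitals mark the 228 bases that also belong to the window of Hadha.
Hadhb: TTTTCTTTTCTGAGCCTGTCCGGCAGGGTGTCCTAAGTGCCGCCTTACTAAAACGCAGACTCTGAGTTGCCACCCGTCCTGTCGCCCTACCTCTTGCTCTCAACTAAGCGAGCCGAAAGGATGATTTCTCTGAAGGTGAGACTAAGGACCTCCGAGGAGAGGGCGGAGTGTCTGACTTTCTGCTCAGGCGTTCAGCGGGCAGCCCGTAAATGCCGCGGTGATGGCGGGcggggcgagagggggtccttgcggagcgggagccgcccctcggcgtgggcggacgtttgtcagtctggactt
The window of Echs1, chr7:140116372-140116671 on the minus strand, is printed as that of another gene with the wide spread, with AGGTCA or its reverse complement in capitals.
Echs1: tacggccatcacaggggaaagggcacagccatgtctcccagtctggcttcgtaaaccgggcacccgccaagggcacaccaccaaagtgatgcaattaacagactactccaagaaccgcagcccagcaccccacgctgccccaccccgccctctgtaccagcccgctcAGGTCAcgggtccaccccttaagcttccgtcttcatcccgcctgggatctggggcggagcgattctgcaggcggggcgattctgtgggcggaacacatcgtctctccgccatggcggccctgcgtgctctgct
Neither gene of the trifunctional protein holds AGGTCA in its window on either strand, which says nothing of binding elsewhere.

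Among the remaining enzymes of the spiral, Hadh, the hydroxyacyl-CoA dehydrogenase for shorter chains, was at 76.0, 92.3 and 81.4 CPM at E16.5, then 69.1, 74.6 and 74.7 CPM at E18.5. Every E18.5 library lay below every E16.5 library, and the log2 change was -0.19 ± 0.13 with an edgeR adjusted p of 0.658. Eci2, an enoyl-CoA isomerase for unsaturated fatty acids, was at 38.3, 49.6 and 48.3 CPM and then 37.8, 39.3 and 40.3 CPM (log2 change -0.21 ± 0.14). Its E18.5 libraries were close together and overlapped E16.5 through E16.5 replicate 1. Its sister enzyme Eci1 was at 44.2, 72.4 and 53.4 CPM and then 54.7, 61.2 and 62.9 CPM, with E16.5 replicate 2 the highest of all (log2 change 0.073). Decr1, the dienoyl-CoA reductase, ran from 20.6 to 29.4 CPM with a log2 change of 0.085.

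Of the electron carriers, the 2 subunits of the electron transfer flavoprotein behaved unlike each other. Etfa (ENSMUSG00000032314, chromosome 9, 55454508 to 55512243), the alpha subunit, was at 16.8, 56.2 and 19.4 CPM at E16.5, then 38.1, 48.0 and 44.8 CPM at E18.5. Etfb, the beta subunit, was at 217, 226 and 220.5 CPM and then 259, 233 and 258 CPM. Etfa in E16.5 replicate 2 was 3.10-fold the mean of the other E16.5 libraries, while for Etfb this ratio was 1.03. The log2 change was 0.50 ± 0.41 for Etfa and 0.18 ± 0.13 for Etfb, with edgeR adjusted p of 0.717 and 0.688. Per length, Etfa stood at 0.0489, 0.157 and 0.0559 of the FPKM of Etfb at E16.5, then at 0.0932, 0.131 and 0.110 at E18.5. Etfdh, the oxidoreductase that hands these electrons to ubiquinone, was at 28.4, 42.0 and 29.5 CPM and then 35.4, 35.5 and 47.6 CPM (log2 change 0.25 ± 0.19).

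**Figure D3:**
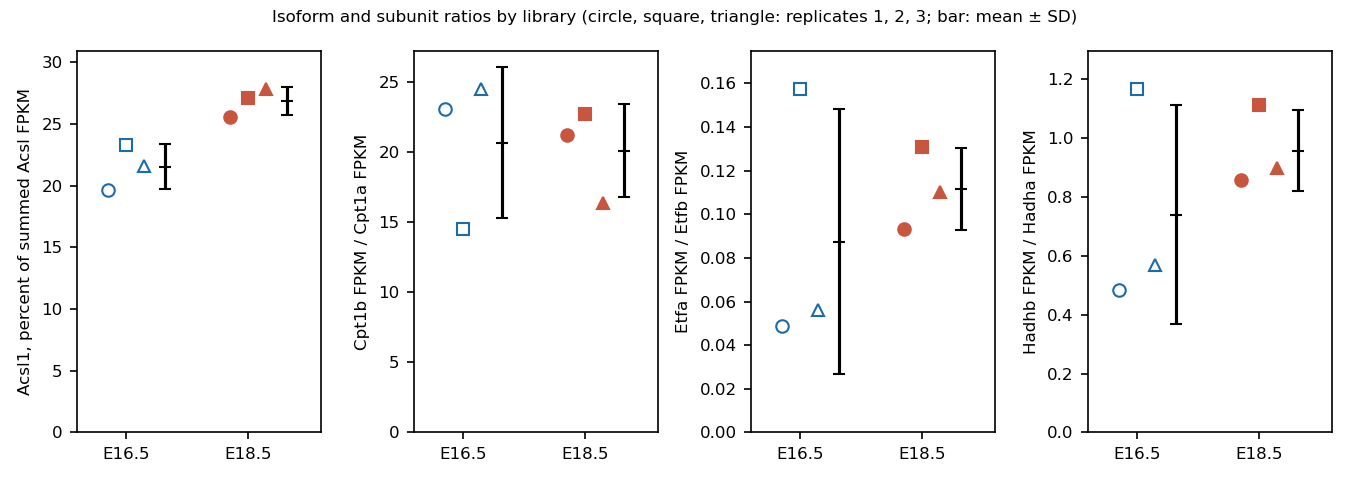
Ratios of FPKM within a family or complex in each library, with open blue symbols for E16.5, filled red symbols for E18.5 and bars for the mean and SD of 3 libraries. The Acsl1 share separates the stages (19.7% to 23.3% against 25.6% to 27.8%), whereas in the other ratios E16.5 replicate 2 (squares) lies away from the other E16.5 libraries.

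Peroxisomal genes ran from a mean of 0.133 FPKM for Abcd2 to 20.8 FPKM for Scp2, and none passed the test. Abcd3, an importer of branched and long-chain acyl groups, was at 36.0, 44.6 and 42.7 CPM at E16.5, then 41.5, 52.9 and 53.7 CPM at E18.5 (log2 change 0.26 ± 0.15, edgeR adjusted p = 0.608). Ehhadh, the L-bifunctional enzyme and a known PPAR-alpha target in liver, was at 2.90, 5.78 and 3.48 CPM and then 4.19, 6.27 and 6.83 CPM (log2 change 0.51 ± 0.32). In both genes the stages overlapped through E18.5 replicate 1. Hsd17b4, the D-bifunctional enzyme, was at 16.1, 28.0 and 18.9 CPM and then 22.4, 26.6 and 26.1 CPM (log2 change 0.25 ± 0.21). Cd63-ps overlaps Hsd17b4 on the same strand, at 37.7% of its level. Scp2, whose longer product is a thiolase for branched chains, ran from 63.3 to 85.2 CPM with a log2 change of 0.17, and its copy Scp2-ps2 held 6.48% of its level. Acaa1a, the peroxisomal thiolase, ran from 26.2 to 30.0 CPM with one of -0.033. Its copy Acaa1b held 13.3% of that level, and Myd88, on the other strand, 38.7%. Acox3, an oxidase of branched chains, was at 32.4, 22.5 and 8.35 CPM and then 28.3, 23.1 and 25.6 CPM, so E16.5 replicate 3 alone was low. Without that library its log2 change was -0.11, against 0.28 with it. Abcd2 stayed between 0.669 and 1.12 CPM.

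Across the members, E16.5 replicate 2 stood apart from the other libraries of its stage. It was the highest E16.5 library in 29 of 38 members, against 38.7% of all genes tested, and the highest of all 6 libraries in 14, against 19.2% of all genes. The median over members of its CPM divided by the mean of the other E16.5 libraries was 1.21, beside 0.984 over all genes. This ratio was over 1.5 in 8 members, against 16.9% of all genes, so that count is near the background. They were Etfa, Acaa2, Echs1, Hadhb, Acad11, Ehhadh, Acads and Hsd17b4, and the ratio was lowest in Acad10 at 0.612. The median deviation of the members from their 6-library mean was -0.17, 0.13 and -0.12 (log2) in the E16.5 libraries, then 0.011, 0.051 and 0.13 in the E18.5 libraries. E16.5 replicate 1, with the highest mitochondrial share, had the lowest deviation, and E16.5 replicate 2 and E18.5 replicate 3, with the lowest shares, had the highest. With mitochondrial genes left out of the counts the median log2 change of the members was 0.16, and with the mitochondrial share as a term it was 0.13, both with 0 members called.

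**Figure D4:**
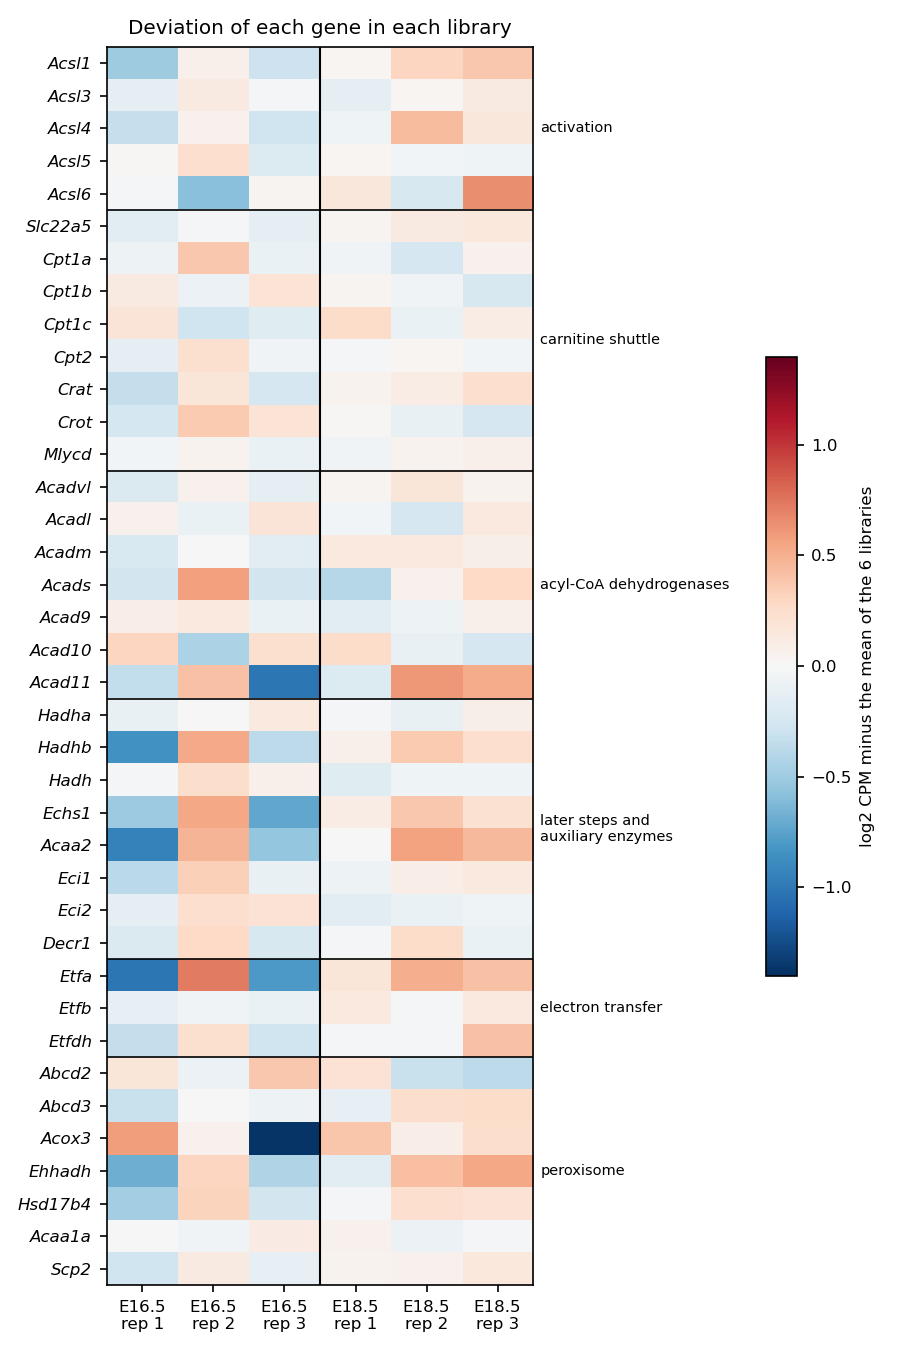
Log2 CPM of each gene in each library minus its mean over the 6 libraries (red above, blue below), with genes grouped by role and the stages divided by a vertical line. Etfa, Acaa2, Hadhb and Echs1 are low in E16.5 replicates 1 and 3 and high in E16.5 replicate 2, while Mlycd, Hadha and Acaa1a are pale in every library.

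Without E16.5 replicate 2, a comparison of 2 with 3 libraries, 1.2% of all genes were called higher and 1.78% in either direction. Of the 38 members, 3 were called higher. They were Etfa (log2 change 1.27 ± 0.15, edgeR adjusted p = 0.0187), Echs1 (0.85 ± 0.14, adjusted p = 0.0417) and Acaa2 (1.09 ± 0.20, adjusted p = 0.0465). Hadhb (0.82 ± 0.17, edgeR adjusted p = 0.0549) and Acsl1 (0.63 ± 0.14, adjusted p = 0.0615) came next and missed the threshold. In that comparison 28 members were above 0 and 10 below, against 50.6% of all genes above 0, and the median was 0.25. These 3 calls rest on leaving out that library and on no other: leaving out any of the other 5 gave 0 calls. E16.5 replicate 2 was singled out because oxidation genes stood apart in it. Etfa, Acaa2 and Echs1 were the members highest in it against the mean of the other E16.5 libraries (3.10-, 2.30- and 2.23-fold). Their adjusted p were thus partly set by that choice and cannot stand as evidence of a change between stages. With libraries split by a mitochondrial share of 30%, each part has a single library of 1 stage. The median log2 change of the members was 0.17 above that share and -0.015 below it, and 16 of 38 members had opposite signs in the 2 parts, against 44.0% of all genes, which is near the background. For Etfa the change was 1.07 above and -0.28 below, for Acaa2 0.73 and 0.028, for Echs1 0.71 and -0.26, and for Acsl1 0.42 and 0.26.

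By role, the median log2 change was 0.37 for the 5 synthetases, 0.0051 for the 8 shuttle genes, -0.070 for the 7 dehydrogenases, 0.079 for the 8 later enzymes, 0.25 for the 3 electron carriers and 0.25 for the 7 peroxisomal genes. Above and below the 30% share, the medians were 0.15 and 0.24 for the synthetases, 0.046 and -0.033 for the shuttle genes, -0.0053 and 0.045 for the dehydrogenases, 0.17 and -0.23 for the later enzymes, 0.29 and -0.021 for the electron carriers and 0.23 and -0.0074 for the peroxisomal genes. Over all genes these medians were -0.012 and -0.0012. Below that share, E16.5 is represented by replicate 2 alone.

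Promoter windows were matched for 31 of the 38 members, and not for Abcd2, Acaa2, Acad9, Cpt1b, Crat, Decr1 and Hsd17b4. Their median GC content was 61.3%, against 52.7% over the 32851 windows of all genes. For members only the window nearest the gene start was used, whereas no such choice was made over all genes. Values of members and of all windows are therefore not like for like. The nuclear receptor core AGGTCA, searched on both strands, was in 7 of the 31 windows (22.6%) and in 16.3% of all windows. Besides Cpt1a, Acadm and Echs1, the windows holding it were those of Acadvl, Acsl6, Cpt1c and Scp2. A direct repeat of that core with 1 base between, the PPAR response element in its strict form, was in 0 of the 31 and in 13 of all windows. The extended core TCAAGGTCA, the estrogen-related receptor element, was in 1 (Acsl6) and in 0.423% of all windows. A match describes the letters of a window of this length and shows no binding.

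Other genes of the pathway gave 0 calls by edgeR among 73 tested, with 7 at an unadjusted p under 0.05, close to the 9.53% of all genes, so the genes named next are given by their values only. Of the 15 transcriptional regulators, 9 were above 0 and 6 below, with a median log2 change of 0.086. Pparg, the PPAR of lipid storage, was at 1.72, 2.54 and 2.77 CPM at E16.5, then 7.26, 4.08 and 7.30 CPM at E18.5 (log2 change 1.41 ± 0.31, edgeR adjusted p = 0.185). Its stages did not overlap, and DESeq2 called it (adjusted p = 0.00452). Ppara, the PPAR that drives oxidation genes in liver and heart, was between 1.28 and 2.50 CPM with a log2 change of 0.097, and Esrra, the estrogen-related receptor of mitochondrial genes, gave 0.18. Of the 10 genes of malonyl-CoA supply and its control, 4 were above 0 and 6 below. Prkag3, a regulatory subunit of AMP-activated kinase, had means of 11.1 ± 1.58 and 5.10 ± 1.45 CPM (SD, n = 3 each), a log2 change of -1.13 ± 0.25 (edgeR adjusted p = 0.185). Prkag2, another such subunit, had a log2 change of 0.55 ± 0.17 (edgeR adjusted p = 0.362).

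Of 26 other oxidation enzymes tested, 13 were above 0 and 13 below, with a median of 0.0074. Slc25a20, the carrier that exchanges acylcarnitine across the inner membrane, gave -0.10. Of 15 peroxisome biogenesis genes, 6 were above 0 and 9 below, with a median of -0.0082 and 0 at an unadjusted p under 0.05. Of 7 genes of carnitine synthesis and acyl binding, 4 were above 0 and 3 below. Dbi, the acyl-CoA binding protein, was at 23.9, 49.5 and 24.6 CPM at E16.5, then 41.3, 53.6 and 47.8 CPM at E18.5, the same library order that Etfa showed at E16.5. Its log2 change was 0.54 in all libraries and 0.97 without E16.5 replicate 2 (edgeR adjusted p = 0.0338), where it was the 1 related gene called. Dbi too was high in the library left out, so this call cannot stand as evidence of a change.

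Markers of other cell types are set beside these values. Fibroblast markers summed to between 2261 and 3573 CPM at E16.5 and between 3806 and 4994 CPM at E18.5, with 8 of 8 above 0 and a median log2 change of 0.46. Cardiomyocyte markers summed to between 33072 and 40554 CPM at E16.5 and between 38211 and 46368 CPM at E18.5. Of these, 9 of 10 were above 0, with a median log2 change of 0.26. E16.5 replicate 2 had the lowest sum, but the markers differed. It was the lowest E16.5 library in Myh6, Myh7, Tnnt2, Tnni3 and Nppa, and between the others in Ryr2 and Myl2. It was the highest in Actc1 (1135, 2360 and 1146 CPM), Pln (514, 993 and 510 CPM) and Myl3 (755, 1169 and 749 CPM). Erythroid markers summed to 9475, 23822 and 15566 CPM at E16.5, then to 8999, 16709 and 21117 CPM at E18.5, so E16.5 replicate 2 was the highest and replicate 1 of each stage the lowest. Of these markers, 3 of 10 were above 0, with a median log2 change of -0.23. The embryonic globin Hbb-y was called lower (log2 change -3.45 ± 0.38, edgeR adjusted p = 0.0219). Endothelial markers (665 to 755 against 730.1 to 802 CPM), macrophage markers (65.2 to 72.0 against 63.2 to 86.7 CPM), skeletal muscle markers (35.7 to 48.9 against 39.6 to 49.7 CPM) and brown adipocyte markers (21.2 to 22.7 against 20.4 to 29.6 CPM) overlapped between stages. The part of these cell types in the oxidation genes was not tested.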

How the data were processed

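Libraries were made from oligo(dT)-selected RNA with dUTP strand marking and unique molecular identifiers (UMIs), per the labels' protocols. The submitters' processing notes name the tools StringTie 1.3.4d, HISAT2 2.0.4, cutadapt 1.9 and UMI-tools and the build mm9, with no role for each. Use of UMIs and strand in counting is not stated. The table deposited by the authors gives 2 values per gene and library, an estimated count and FPKM. The counts were already whole numbers and were not rounded further. For 99.7% of 11385 genes with over 200 counts in every library, count and FPKM ratios between libraries agreed within 1%. Of the deposited identifiers, 29874 were in GENCODE M21 (GRCm38), and 611 had the same coordinates there, so no deposited coordinate is printed.

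The test between stages was that of edgeR 4.0.16 under R 4.3.3 (quasi-likelihood, two-sided, filterByExpr, TMM, stage as the only term, adjusted over 19959 genes). The common biological coefficient of variation was 34.3%. CPM is TMM-scaled, and SE is |log2 change| over the root of F. The alternatives used DESeq2 1.42.0 and limma 3.58.1 (pseudocount 1). Similar transcripts were found with BLAST+ 2.17.0 (at least 95% identity over 200 bases). The fit was tested on simulated data with 19272 genes.

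The members, lists and tests were chosen with earlier results of these data known. Values per library are given for the members with the 8 smallest p or the 8 highest FPKM and for Cpt1a and Cpt1b, by rule. Those of other members, and the windows of Hadhb and Echs1, were chosen after their values were seen. Pathway lists name up to 4 genes with the smallest p. Ppara, Esrra, Slc25a20 and Ucp1 were named for their roles. Prdm16 and Cidea were named as the highest brown adipocyte markers, and Hbb-y as the 1 marker gene that edgeR called. Some genes that the rule names are left out of the text.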

Additional observations from a re-analysis of the deposited data

How the results depend on the processing

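The count of 0 members called was the same under RLE size factors, no low-count filter, DESeq2, limma on log2(FPKM + 1), the replicate block, the mitochondrial share as a term and mitochondrial genes left out, and ran from 0 to 3 when 1 library was left out. The labels do not say that a replicate number marks a shared litter or batch. Deviations of same-numbered libraries correlated at 0.10, 0.19 and -0.066, and not every library correlated best with its own number, so the numbers were not treated as pairs. The replicate block called 0 members and 43 genes in all. The members' median ran from 0.071 to 0.25 with 1 library left out and from 0.13 to 0.21 under the other settings. Related genes called numbered 3 with DESeq2, Pparg and Prkag3 among them, and 0 to 1 with 1 library left out. Over all genes, 343 were called by DESeq2, 10 by limma on log2(FPKM + 1) and 184 with the mitochondrial share as a term, and from 8 to 371 with 1 library left out, the highest without E16.5 replicate 2. The cause was not tested.

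Log2 changes kept their sign for 25 of 38 members in the alternatives run on them, not counting the split by mitochondrial share. In that split 16 of 38 members had opposite signs in the 2 parts, against 44.0% of all genes. Signs reversed with limma on log2(FPKM + 1) for Acsl5 (0.041), Cpt2 (0.062), Acadl (0.012), Acads (0.053), Acad9 (0.0044), Acad10 (0.034), Hadha (0.075) and Acaa1a (0.062). All 8 went from below to above 0, and that setting used FPKM without TMM scaling. With the mitochondrial share as a term the sign reversed for Acsl3 (-0.031), Acad10 (0.094) and Eci1 (-0.013). Chosen after seeing the data, sums with a copy reversed Acad10 (0.00085, with Acad12) and no other of the 6 members summed. With 1 library left out, log2 changes ran from -0.050 to 0.089 for Acsl3, -0.16 to 0.063 for Acsl5, -0.25 to 0.018 for Cpt1a, -0.12 to 0.075 for Cpt2, -0.23 to 0.26 for Acads, -0.27 to 0.054 for Acad10, -0.087 to 0.033 for Hadha, -0.086 to 0.29 for Eci1, -0.029 to 0.27 for Decr1, -0.11 to 0.72 for Acox3 and -0.080 to 0.0078 for Acaa1a.

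The difference of the log2 ratio of Cpt1b to Cpt1a ran from -0.26 to 0.12 with 1 library left out, and was -0.018 in CPM. The Acsl1 share differed by 4.38 to 6.20 percentage points with 1 library left out and by 6.89 in CPM. The SE was 0.32 to 0.41 for the rarest members, Acsl6, Abcd2, Acad11 and Ehhadh, and was as large for the more abundant Etfa (0.41) and Acox3 (0.40).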
